A study of Mus musculus with 17 samples.

Results

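Cish, Socs2, Socs3, Pim1, Pim2 and Bcl6 are 6 genes taken by name as targets and feedback regulators of the transcription factor STAT5, and they were followed in mouse CD8+ T cells with and without Cbl-b. These genes were chosen with earlier results of these data known. All 6 were among the 53679 genes of the count files, and 6 of 6 were among the 16246 genes that passed the filter on low counts. Cells were knockout (KO) or wild type (WT) for Cblb, which encodes Cbl-b, an E3 ubiquitin ligase that restrains T cell activation. Within each genotype they were unstimulated, or stimulated for 12 h. No time is given for the unstimulated cells, so antibody and time in culture cannot be told apart in comparisons with them. The stimulus was an antibody to CD3, a component of the T cell receptor complex, alone or together with an antibody to the costimulatory receptor CD28 (both antibodies). All mice were of the C57BL/6 strain. The labels give no age, no sex and no design of the Cblb allele, and name no batch. There were 3 libraries in each group but 1, since the WT group with both antibodies had replicates 2 and 3 only. Whether replicates are separate animals is not in the labels, and the p-values thus reflect the spread between libraries, which may be technical.

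IL-2 and related cytokines signal through receptors that share the common gamma chain. The kinases JAK1 and JAK3 on these receptors phosphorylate STAT5, which then enters the nucleus and binds DNA. STAT5 switches on genes that feed back on the pathway, among them Cish and several Socs genes, whose products bind phosphorylated receptors or JAK kinases and dampen the signal. It also drives the Pim kinases, which act on growth, translation and survival. Bcl6, a transcriptional repressor tied to memory and follicular T cell states, is known to be repressed by STAT5 in activated T cells.

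The DNA letters that STAT5 is known to prefer are TTCNNNGAA, a palindrome and so the same on both strands. It was searched in RefSeq promoter windows of the build GRCm38.p6, each from 250 bases before to 50 bases after a transcript start. The table held 7 windows of 5 of the genes, and Socs2 had no entry. The window of Cish (chr9:107296409-107296708, plus strand) and the downstream window of Bcl6 (chr16:23981234-23981533, minus strand, inside the annotated gene) are shown because they held the most matches and because Cish was higher and Bcl6 lower in stimulated KO cells than in stimulated WT cells. Capitals mark the matches, and each sequence runs 5′ to 3′ on the strand of its gene.
Cish: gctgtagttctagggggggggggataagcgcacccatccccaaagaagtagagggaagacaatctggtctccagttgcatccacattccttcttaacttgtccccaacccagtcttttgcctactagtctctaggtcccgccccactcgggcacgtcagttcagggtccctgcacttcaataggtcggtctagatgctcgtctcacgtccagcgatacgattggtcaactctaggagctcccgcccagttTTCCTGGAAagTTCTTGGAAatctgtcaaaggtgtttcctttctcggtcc
Bcl6: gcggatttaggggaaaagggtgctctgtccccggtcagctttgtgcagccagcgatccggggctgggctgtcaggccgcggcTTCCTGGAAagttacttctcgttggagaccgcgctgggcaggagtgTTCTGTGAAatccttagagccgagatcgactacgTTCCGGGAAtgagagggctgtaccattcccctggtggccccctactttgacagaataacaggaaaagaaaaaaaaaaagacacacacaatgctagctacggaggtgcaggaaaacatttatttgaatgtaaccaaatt

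The Cish window held 2 matches, TTCCTGGAA at position 1 of the transcript and TTCTTGGAA at position 12. The Bcl6 window held 3, TTCCTGGAA at position -168, TTCTGTGAA at position -122 and TTCCGGGAA at position -88, counted from the transcript start. An upstream window of Bcl6 (chr16:23988803-23989102) held TTCTCAGAA at position -118, and that of Socs3 (chr11:117969317-117969616) held TTCTTAGAA at position -154. The 2 windows of Pim1 and the window of Pim2 held none. Of all 32851 promoter windows of this length in the table, 8.3% held at least 1 match, 0.457% at least 2 and 0.0335% at least 3. The same ends with 4 bases between them, a spacing known for STAT6, were in none of the 7 windows and in 6.95% of all windows. A match is a run of letters and not a measured binding site.

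Library totals ran between 16635826 and 38269033 counts, apart from KO unstimulated replicate 2 with 160059285. Levels are CPM, counts scaled to a common library total. The mean level of Cblb itself was 66.3 CPM in KO cells against 149 CPM in WT cells when unstimulated, 80.5 against 187 CPM with anti-CD3, and 86.3 against 178 CPM with both antibodies. No 2 replicates were duplicates (the chi-square per gene of replicate pairs was 4.03 to 629, beyond sampling noise). GC-rich genes were shifted against GC-poor genes to a different extent in each library. This tilt, the median log2 deviation of GC-rich genes (56% or more) less that of GC-poor genes (40% or less), was 0.16 to 1.15 in KO and -0.75 to -0.31 in WT unstimulated cells, 0.1 to 0.24 in KO and -0.41 to -0.11 in WT cells given anti-CD3, and -1.15 to 0.36 in KO and 0.52 to 0.57 in WT cells given both antibodies. CD8 T cell markers summed to between 3439 and 3861 CPM in the unstimulated libraries and to between 1944 and 2108 CPM in all stimulated libraries. B cell markers summed to 19.0 to 27.2 CPM in KO and 17.1 to 19.9 in WT unstimulated cells, and to between 5.16 and 9.93 in all stimulated libraries. The 3 markers of CD4 T cells and regulatory T cells summed to at most 3.52 CPM and those of macrophages to at most 4.3. Dendritic cell markers summed to 7.3 to 11.8 CPM in unstimulated and to 3.05 to 5.76 CPM in stimulated libraries. The 3 NK cell markers summed to 191 to 214 CPM in KO and 134 to 151 in WT unstimulated cells, and in stimulated cells to 78.3 to 124 in KO and 42.9 to 62.7 in WT, with Ncr1 at 0 in every stimulated library. Nkg7, which CD8 T cells also express, made up nearly all of this sum (41.1 to 212 CPM), while Klrb1c reached at most 4.02 and Ncr1 at most 0.194 CPM. Their part in the results was not tested. In bulk RNA, fewer cells that express a gene and less of its RNA per cell cannot be told apart.

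Cish and Socs2 differed most between genotypes, and did so in stimulated cells. Bcl6 came next in stimulated cells, though with anti-CD3 its difference was close in size to that of Pim1. Differences are log2 fold changes of KO over WT from edgeR's quasi-likelihood test with Benjamini-Hochberg adjustment over all tested genes, called at an adjusted p under 0.05. In cells given anti-CD3, 5 of 6 genes were called, 4 higher and 1 lower in KO cells, where 15.3 percent of all tested genes were called in either direction. With both antibodies, 4 of 6 were called, 3 higher and 1 lower, against 16.1 percent of all genes. When only the 5 libraries compared entered the fit, 0 of 15093 genes were called and so none of these 4, whose log2 fold changes were 1.67 for Cish, 3.25 for Socs2, 0.40 for Pim2 and -0.92 for Bcl6 (adjusted p 0.197 to 0.233). In unstimulated cells 2 of 6 were called, both higher, against 25.4 percent of all genes, so that the share in unstimulated cells lay near the background. These calls shifted with a correction for GC content. With anti-CD3, Pim2 was then not called (0.15, edgeR adjusted p = 0.314) and Socs3 was called lower (-0.31, edgeR adjusted p = 0.0458). With both antibodies Pim1 was also called higher (0.49, edgeR adjusted p = 0.038). Neither unstimulated call held (Socs3 -0.06, Pim2 -0.03). The library ranges of KO and WT cells did not overlap for 1 of 6 genes in unstimulated cells, 5 of 6 with anti-CD3 and 6 of 6 with both antibodies, where 41.3, 45 and 49 percent of all tested genes did not overlap. The median log2 fold change of the 6 genes was 0.40 in unstimulated cells, 0.55 with anti-CD3 and 0.24 with both antibodies, and that of all tested genes -0.011, 0.037 and 0.0 in the same order of states.

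**Figure D1:**
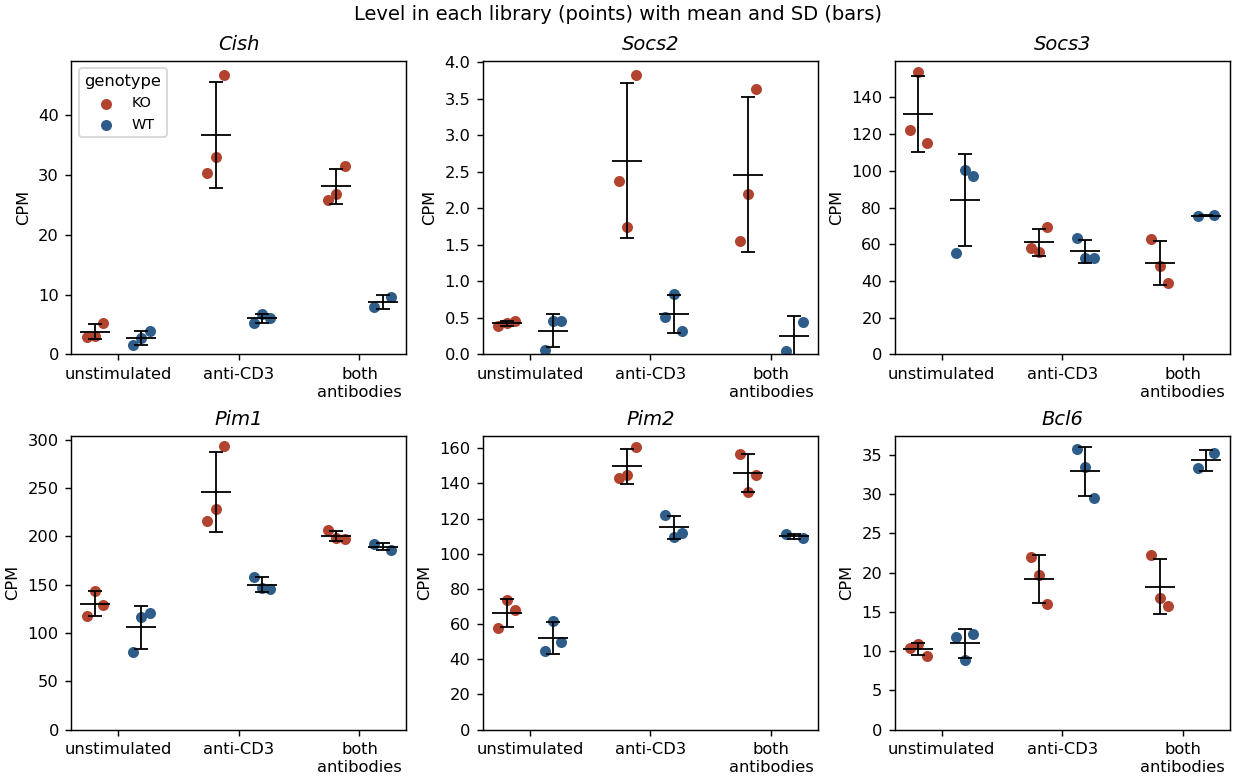
Level of the 6 genes in CPM (y axis, linear from 0) in unstimulated cells, cells given anti-CD3 and cells given both antibodies (x axis). Each point is a library, KO left of WT, and black bars give the mean and SD (n = 3, and 2 in WT cells given both antibodies; the lower SD bar of Socs2 there is clipped at 0). Cish lay at 25.9 to 46.8 CPM in stimulated KO cells and at 5.29 to 9.64 CPM in stimulated WT cells, while Bcl6 lay at 15.7 to 22.2 CPM in the 6 stimulated KO libraries and at 29.5 to 35.7 CPM in the 5 stimulated WT libraries.

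Cish encodes CIS, which binds phosphorylated receptor sites and is a feedback inhibitor of IL-2 and T cell receptor signalling. The gene lies at chr9:107296026-107302784 on the plus strand (ENSMUSG00000032578, GRCm38). With anti-CD3 it had 30.3, 33.0 and 46.8 CPM in KO cells, against 5.29, 6.74 and 6.05 CPM in WT cells. The lowest KO library lay far above the highest WT library. The log2 fold change was 2.6 ± 0.245 (SE; 6.06-fold; edgeR adjusted p = 1.37e-05). With both antibodies Cish had 25.9, 26.9 and 31.5 CPM in KO cells, against 7.89 and 9.64 CPM in WT cells, again without overlap. That log2 fold change was 1.68 ± 0.277 (edgeR adjusted p = 0.00314), with adjusted p of 0.0733 and 0.0666 when WT both-antibody replicate 2 or replicate 3 was left out. Unstimulated cells had 2.92, 3.17 and 5.24 CPM in KO and 1.62, 2.74 and 3.85 CPM in WT, so the groups overlapped, and the log2 fold change of 0.46 did not pass (edgeR adjusted p = 0.224).

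Cish was higher in stimulated than in unstimulated cells of both genotypes. With anti-CD3 the log2 fold change over unstimulated cells was 3.33 ± 0.258 in KO cells (edgeR adjusted p = 4.54e-08) and 1.20 ± 0.268 in WT cells (edgeR adjusted p = 0.00332). The difference of these responses, the genotype by anti-CD3 interaction, was 2.14 ± 0.367 (edgeR adjusted p = 0.0441), and Cish was the only one of the 6 genes called in this interaction, which called 0.0554 percent of all genes. That call lies near the threshold. It held in 4 of 17 fits that left out 1 library each, with adjusted p between 0.0146 and 0.169, while the size of the interaction stayed between 1.84 and 2.26 in the fits where the call was lost. With both antibodies the response was 2.94 ± 0.257 in KO cells and 1.73 ± 0.290 in WT cells, and the interaction was 1.21 ± 0.388 (edgeR adjusted p = 0.0218), where 37.5 percent of all genes were called. It did not pass without WT both-antibody replicate 2 (1.06, adjusted p = 0.0977), KO unstimulated replicate 2 (1.06, adjusted p = 0.0697) or WT unstimulated replicate 3 (0.92, adjusted p = 0.0666). In order of mean level, KO cells given anti-CD3 (36.7 ± 8.84 CPM, SD, n = 3) and given both antibodies (28.1 ± 2.99 CPM, SD, n = 3) came before WT cells given both antibodies (8.77 ± 1.24 CPM, SD, n = 2) and given anti-CD3 (6.03 ± 0.727 CPM, SD, n = 3). The 2 stimulated KO groups overlapped in range, whereas the 2 stimulated WT groups, of 3 and 2 libraries, did not. Added anti-CD28 was not called for Cish in KO cells (-0.39, edgeR adjusted p = 0.568) or WT cells (0.53, edgeR adjusted p = 0.262). The difference of these 2 values was not called either (-0.92, edgeR adjusted p = 0.109).

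Socs2 encodes a SOCS family adaptor of a ubiquitin ligase, best known for limiting growth hormone signalling and itself induced by STAT5. It was the least abundant of the 6 genes and lies at chr10:95385362-95417180 on the minus strand (ENSMUSG00000020027). With anti-CD3, KO cells had 49, 31 and 143 reads (2.37, 1.74 and 3.82 CPM) and WT cells 9, 32 and 9 reads (0.512, 0.827 and 0.315 CPM). With both antibodies, KO cells had 28, 42 and 62 reads (1.55, 2.20 and 3.63 CPM) and WT cells 1 and 9 reads (0.0519 and 0.441 CPM). Stimulated KO cells were therefore above stimulated WT cells in every library by CPM. The log2 fold change was 2.24 ± 0.511 with anti-CD3 (edgeR adjusted p = 0.00729) and 3.27 ± 0.709 with both antibodies (edgeR adjusted p = 0.00875). Both rest on low counts. Without KO anti-CD3 replicate 3 the first was 1.86 (adjusted p = 0.073), and leaving out WT both-antibody replicate 2 or replicate 3 gave 2.45 and 5.46 for the second (adjusted p = 0.122 and 0.0706).

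Unstimulated cells had 7, 65 and 7 reads of Socs2 in KO (0.393, 0.430 and 0.453 CPM) and 2, 12 and 8 reads in WT (0.0648, 0.456 and 0.453 CPM), a difference that was not detectable at this depth (log2 fold change 0.48 ± 0.630, edgeR adjusted p = 0.602). In KO cells Socs2 rose with anti-CD3 (log2 fold change 2.65 ± 0.527, edgeR adjusted p = 0.000785) and with both antibodies (2.52 ± 0.535, edgeR adjusted p = 0.00116). In WT cells neither response passed, with 0.88 ± 0.621 (edgeR adjusted p = 0.336) for anti-CD3 and -0.28 ± 0.830 (edgeR adjusted p = 0.819) for both antibodies. The difference of the responses was called for both antibodies, at 2.80 ± 0.977 (edgeR adjusted p = 0.0329), and not for anti-CD3, at 1.76 ± 0.830 (edgeR adjusted p = 0.336). In the first it was 2.42 (adjusted p = 0.0871) after correction for GC content, and it also missed the threshold in 6 of 17 fits without 1 library, at adjusted p up to 0.155.

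Socs3, a SOCS family inhibitor best known for blocking JAK kinases at gp130 cytokine receptors, fell in stimulated KO cells, in which Cish and Socs2 rose. It lies at chr11:117966079-117970047 on the minus strand (ENSMUSG00000053113) and, at 58.7% GC, is the most GC-rich of the 6. KO unstimulated cells had 122, 154 and 115 CPM, against 55.5, 100.4 and 97.0 CPM in WT unstimulated cells. With anti-CD3 the values were 57.8, 55.9 and 69.4 CPM in KO cells and 63.4, 52.7 and 52.6 CPM in WT cells. With both antibodies they were 62.7, 48.1 and 38.9 CPM in KO cells and 75.3 and 75.8 CPM in WT cells. All stimulated KO libraries were thus below all unstimulated KO libraries, whereas WT replicate 1 of the unstimulated cells, at 55.5 CPM, lay within the range of WT cells given anti-CD3.

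Socs3 fell in KO cells by a log2 fold change of -1.10 ± 0.202 with anti-CD3 (edgeR adjusted p = 0.000502) and of -1.39 ± 0.204 with both antibodies (edgeR adjusted p = 6.39e-05). In WT cells it fell by 0.58 on the log2 scale with anti-CD3 (edgeR adjusted p = 0.0447), a call that held in 6 of 17 fits without 1 library and was lost with the replicate number as a block (adjusted p = 0.0747), and was at -0.16 ± 0.225 with both antibodies (edgeR adjusted p = 0.621). After correction for GC content the response of WT cells was -0.64 ± 0.106 with anti-CD3 (edgeR adjusted p = 9.25e-05). With both antibodies it was -0.84 ± 0.121 (edgeR adjusted p = 2.51e-05). The corrected responses of KO cells were -0.89 and -0.81. Between genotypes, Socs3 was higher in KO unstimulated cells by 0.63 ± 0.200 (edgeR adjusted p = 0.0311), a value that was -0.06 ± 0.104 after the GC correction, 0.5 (adjusted p = 0.167) without KO unstimulated replicate 2 and 0.4 (adjusted p = 0.128) without WT unstimulated replicate 1. With anti-CD3 the log2 fold change was 0.12 ± 0.201 (edgeR adjusted p = 0.736) as deposited and -0.31 ± 0.106 (adjusted p = 0.0458) after the correction. With both antibodies it was -0.60 ± 0.224 (edgeR adjusted p = 0.0755) as deposited and -0.02 ± 0.120 after it. The interaction with both antibodies, -1.23 ± 0.3 (edgeR adjusted p = 0.00628), was 0.03 ± 0.159 after it. The direction of Socs3 between genotypes therefore changed with that correction, while its fall in stimulated KO cells did not. In WT cells both responses were called as falls after it, and only that to anti-CD3 as deposited.

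**Figure D2:**
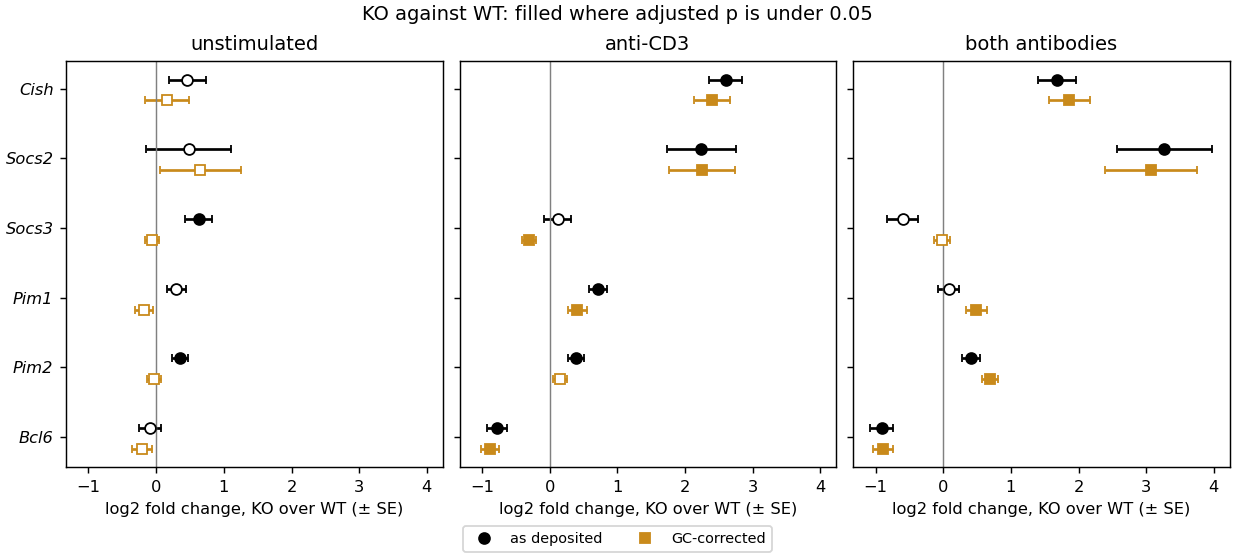
Log2 fold change of KO over WT (x axis, same scale in the 3 panels) for the 6 genes (y axis) in unstimulated cells, cells given anti-CD3 and cells given both antibodies, with bars of ± 1 SE. Circles are fits to the counts as deposited and squares fits corrected for GC content, filled where the adjusted p is under 0.05. Cish, Socs2 and Bcl6 keep their place in stimulated cells under both fits, while Socs3, Pim1 and Pim2 shift, for example Socs3 in unstimulated cells at 0.63 as deposited and -0.06 corrected.

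Pim1 and Pim2 encode serine/threonine kinases that need no upstream kinase to be active, so that their level is the main control of their activity. Pim1 lies at chr17:29490753-29496112 on the plus strand (ENSMUSG00000024014). With anti-CD3 it had 216, 228 and 293 CPM in KO cells, against 158, 147 and 145 CPM in WT cells. The groups did not overlap, and the log2 fold change was 0.71 ± 0.134 (1.64-fold; edgeR adjusted p = 0.00204), or 0.41 ± 0.134 (adjusted p = 0.0374) after the GC correction. With both antibodies it had 206, 198 and 197 CPM in KO cells and 192 and 186 CPM in WT cells, close together although apart in range (log2 fold change 0.08 ± 0.150, edgeR adjusted p = 0.734). The GC correction gave 0.49 ± 0.152 there (adjusted p = 0.038). Unstimulated cells had 118, 143 and 129 CPM in KO and 80.5, 116 and 121 CPM in WT, with overlap (0.30 ± 0.134, edgeR adjusted p = 0.103; -0.18 after the GC correction). An antisense gene, Gm26885, overlaps Pim1 and had 12 to 662 reads, at most 4.38 CPM.

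Pim2 lies at chrX:7878262-7883432 on the plus strand (ENSMUSG00000031155). It had 143, 145 and 161 CPM in KO cells given anti-CD3, against 122, 109.8 and 112 CPM in WT cells. With both antibodies the values were 157, 135 and 145 CPM in KO cells and 111 and 109 CPM in WT cells. The KO libraries lay above the WT libraries in both stimulated states. Unstimulated cells overlapped, with 57.7, 73.6 and 68.0 CPM in KO and 44.5, 62.0 and 49.8 CPM in WT. The log2 fold change of KO over WT was 0.35 ± 0.115 in unstimulated cells (edgeR adjusted p = 0.0341), 0.39 ± 0.114 with anti-CD3 (edgeR adjusted p = 0.0299) and 0.41 ± 0.129 with both antibodies (edgeR adjusted p = 0.041). After the GC correction these were -0.03, 0.15 and 0.69, of which only the last passed (adjusted p = 0.000717). The unstimulated call was lost without KO replicate 2 or 3 (adjusted p = 0.179 and 0.0608) or WT replicate 1 or 3 (adjusted p = 0.175 and 0.0936). With anti-CD3 the call was also lost without KO replicate 3 (0.33, adjusted p = 0.154) or WT anti-CD3 replicate 2 (0.35, adjusted p = 0.114), and, at 0.0658 and 0.10, without WT both-antibody replicate 2 or WT anti-CD3 replicate 3. With both antibodies it held in 7 of 17 fits that left out 1 library, with adjusted p from 0.0277 to 0.205.

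Both Pim genes were higher in stimulated than in unstimulated cells of both genotypes. Pim2 rose by nearly equal amounts, with log2 fold changes of 1.17 ± 0.116 in KO and 1.14 ± 0.116 in WT cells for anti-CD3 (edgeR adjusted p = 6.48e-07 and 1.38e-06). For both antibodies they were 1.13 ± 0.116 in KO and 1.08 ± 0.127 in WT cells (edgeR adjusted p = 1.01e-06 and 9.48e-06). The interactions of Pim2 were 0.03 ± 0.162 and 0.05 ± 0.172, and neither passed, although the second was 0.73 ± 0.151 (adjusted p = 0.00538) after the GC correction. Pim1 rose by 0.91 ± 0.135 in KO and 0.50 ± 0.134 in WT cells with anti-CD3 (edgeR adjusted p = 4.92e-05 and 0.0108), and by 0.62 ± 0.134 in KO and 0.84 ± 0.148 in WT cells with both antibodies (edgeR adjusted p = 0.00135 and 0.000483). Its interactions, 0.41 ± 0.189 and -0.22 ± 0.201, did not pass (edgeR adjusted p = 0.324 and 0.42), and the second was 0.67 ± 0.203 (adjusted p = 0.0373) after the GC correction. Without WT unstimulated replicate 1 the response of Pim1 in WT cells to anti-CD3 was 0.34 (adjusted p = 0.0528).

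Bcl6, the repressor, was lower in stimulated KO cells than in stimulated WT cells. It lies at chr16:23965052-23988852 on the minus strand (ENSMUSG00000022508), on the same chromosome as Cblb. With anti-CD3 it had 22.0, 19.7 and 16.0 CPM in KO cells, against 35.7, 33.4 and 29.5 CPM in WT cells. With both antibodies it had 22.2, 16.7 and 15.7 CPM in KO cells, against 33.3 and 35.2 CPM in WT cells. The highest KO library was below the lowest WT library in both states. The log2 fold change was -0.78 ± 0.151 with anti-CD3 (edgeR adjusted p = 0.00243) and -0.91 ± 0.167 with both antibodies (edgeR adjusted p = 0.00425), and -0.88 and -0.89 after the GC correction. With both antibodies the adjusted p was 0.0622 or 0.0763 when WT replicate 2 or replicate 3 was left out. Unstimulated cells overlapped, with 10.4, 10.9 and 9.38 CPM in KO and 11.8, 8.86 and 12.2 CPM in WT (-0.09 ± 0.157, edgeR adjusted p = 0.704).

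Bcl6 was higher in stimulated than in unstimulated cells of both genotypes. With anti-CD3 it rose by 0.90 ± 0.155 in KO cells (edgeR adjusted p = 0.000227) and by 1.58 ± 0.155 in WT cells (edgeR adjusted p = 8.36e-07). With both antibodies it rose by 0.82 ± 0.157 in KO cells (edgeR adjusted p = 0.00046) and by 1.65 ± 0.168 in WT cells (edgeR adjusted p = 2.01e-06). The difference of the responses was -0.82 ± 0.230 for both antibodies (edgeR adjusted p = 0.0111) and -0.69 ± 0.217 for anti-CD3, which did not pass over all genes (unadjusted p = 0.00566, edgeR adjusted p = 0.199). In both stimulated states every KO library stayed above every unstimulated KO library.

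**Figure D3:**
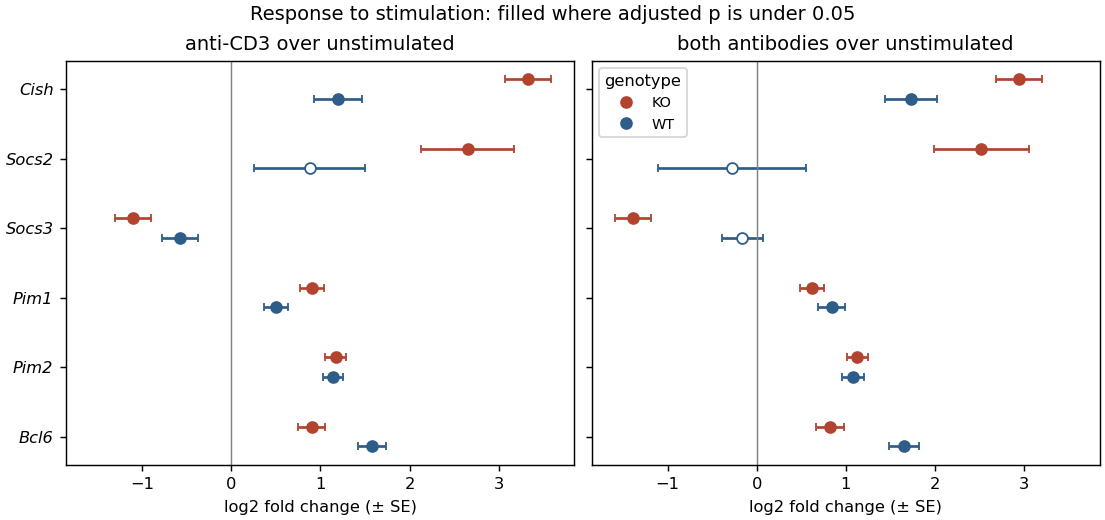
Log2 fold change over unstimulated cells of the same genotype (x axis, same scale in both panels) for the 6 genes (y axis), for anti-CD3 and for both antibodies, with bars of ± 1 SE, KO above WT in each row. Points are filled where the adjusted p is under 0.05. Cish rose by 3.33 in KO and 1.20 in WT cells with anti-CD3, Pim2 by 1.17 and 1.14, and Bcl6 by 0.90 and 1.58.

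Over the 6 genes, 6 of 6 were called in KO cells for each stimulation, 5 higher and 1 (Socs3) lower, where 36.9 percent of all genes were called for anti-CD3 and 45.4 percent for both antibodies. In WT cells 5 of 6 were called for anti-CD3, 4 higher and 1 lower, against 24.4 percent of all genes, and 4 of 6 for both antibodies, all higher, against 34.1 percent. These comparisons share their unstimulated libraries within a genotype. Adding anti-CD28 to anti-CD3 called 0 of 6 genes in KO cells and 0 of 6 in WT cells, and 0 percent of all genes in each, by edgeR. At an unadjusted p under 0.05 there were 1460 genes in KO cells and 3506 in WT cells, among them Pim1 in both, with log2 fold changes of -0.29 ± 0.134 in KO cells and 0.33 ± 0.149 in WT cells. After the GC correction these values of Pim1 were 0.02 in KO cells and -0.06 in WT cells. Limma voom with quality weights called 4 of the 6 genes in KO cells and 3 in WT cells for the same comparison, where it called 34.2 percent of all genes in KO cells and 37.3 percent in WT cells. The smallest edgeR adjusted p of the 6 was 0.547 in KO cells and 0.211 in WT cells, both for Pim1. The interaction of genotype with added anti-CD28 called 0 of 6 genes, against 0.00616 percent of all genes.

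Scaled by exon length, Pim1 and Pim2 led in stimulated cells and Socs2 was last in each group. The length is that of all annotated exons of a gene together, 6419 bases for Cish, 6700 for Bcl6 and 9531 for Socs2. It can exceed the length of a single transcript, so the order of genes depends on the annotation. KO cells given anti-CD3 had 73.1 CPM per kb of Pim1, 53.6 of Pim2, 21.1 of Socs3, 5.72 of Cish, 2.87 of Bcl6 and 0.278 of Socs2. WT cells given anti-CD3 had 44.6 CPM per kb of Pim1, 41.0 of Pim2, 19.5 of Socs3, 4.90 of Bcl6, 0.939 of Cish and 0.0578 of Socs2. Cish thus stood above Bcl6 in the KO group and below it in the WT group, in both cases without overlap of the library ranges. The same exchange was present with both antibodies, at 4.37 of Cish and 2.72 of Bcl6 in KO cells and 1.37 of Cish and 5.12 of Bcl6 in WT cells. In KO unstimulated cells Socs3 came first, at 45.1 CPM per kb, overlapping Pim1 at 38.8.

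The genes upstream of STAT5 were read from the same libraries. Il2, the cytokine itself, had a mean of 15.3 ± 3.59 CPM in KO cells given anti-CD3, against 2.62 ± 0.876 CPM in WT cells (SD, n = 3 each), with a log2 fold change of 2.51 ± 0.437 (edgeR adjusted p = 0.00168). With both antibodies it averaged 16 ± 9.36 CPM in KO cells (SD, n = 3) and 2.78 ± 0.472 CPM in WT cells (SD, n = 2), a log2 fold change of 2.52 ± 0.522 (edgeR adjusted p = 0.00842). Il2ra, the high-affinity receptor chain and a STAT5 target, was higher by 1.5 ± 0.204 with anti-CD3 and by 1.63 ± 0.238 with both antibodies (edgeR adjusted p = 0.000262 and 0.00222). Stat5a was higher in KO cells by 0.64 when unstimulated and by 0.72 with anti-CD3 (edgeR adjusted p = 0.00725 and 0.00164), and was at -0.25 with both antibodies (edgeR adjusted p = 0.239). After the GC correction these 3 values were -0.01, 0.34 and 0.28. Stat5b was higher by 0.43 in KO unstimulated cells (edgeR adjusted p = 0.0445; 0.18 after the GC correction, which did not pass) and lower by a log2 fold change of -0.69 with both antibodies (edgeR adjusted p = 0.0145).

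Jak3, which pairs with the common gamma chain, was higher by 1.28 ± 0.263 in KO unstimulated cells (edgeR adjusted p = 0.00834), and 0.40 after the GC correction. It did not pass with anti-CD3 (0.78, edgeR adjusted p = 0.0584) or with both antibodies (-0.69, edgeR adjusted p = 0.112). After the GC correction it was 0.23 with anti-CD3, which passed (adjusted p = 0.0444), and -0.02 with both antibodies. Over the fixed list of common gamma chain cytokines and receptors, 9 of 14 genes were tested, and KO over WT called 4 higher and 1 lower in unstimulated cells, 6 higher and 1 lower with anti-CD3, and 3 higher and 0 lower with both antibodies. The share of all genes called was 25.4, 15.3 and 16.1 percent in that order of states. The gene that was lower in the first 2 states was Il7r, the IL-7 receptor chain, at -0.48 and -0.57. After the GC correction this list had 3 higher and 0 lower in unstimulated cells, so Il7r was not called lower there. With anti-CD3 it then had 5 higher and 2 lower, and with both antibodies 4 higher and 1 lower. Of 11 JAK and STAT genes, 6 were higher and 0 lower in unstimulated cells, 1 higher and 2 lower with anti-CD3, and 0 higher and 1 lower with both antibodies. These counts stand beside the same shares of all genes. After the GC correction the unstimulated count of JAK and STAT genes was 2 higher and 0 lower.

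**Figure D4:**
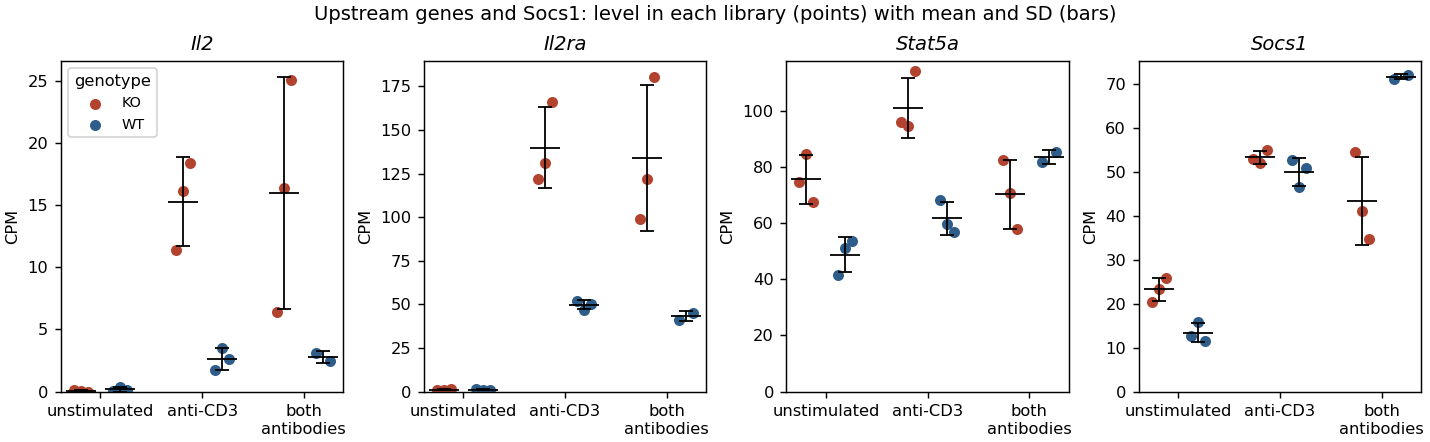
Level of Il2, Il2ra, Stat5a and Socs1 in CPM (y axis, linear from 0) in the 3 states (x axis). Points are libraries, KO left of WT, and black bars give the mean and SD. With anti-CD3 the mean of Il2 was 15.3 CPM in KO cells, against 2.62 CPM in WT cells. With both antibodies the mean of Socs1 was 43.4 CPM in KO cells, against 71.5 CPM in WT cells.

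Socs1, a direct inhibitor of JAK kinases, had a log2 fold change of KO over WT of 0.09 with anti-CD3 (edgeR adjusted p = 0.711) and was lower at -0.72 ± 0.154 with both antibodies (edgeR adjusted p = 0.00812), which was -0.13 after the GC correction. Among 16 other SOCS genes, phosphatases and PIAS inhibitors, 2 were higher and 1 lower with anti-CD3, and 1 higher and 1 lower with both antibodies, beside 15.3 and 16.1 percent of all genes called, so that both shares lay near the background. The 2 higher with anti-CD3 were Dusp2 (0.55 ± 0.114, edgeR adjusted p = 0.00412), a nuclear phosphatase of MAP kinases, and Ptpn11 (0.27 ± 0.0739, edgeR adjusted p = 0.0184), which encodes the phosphatase SHP-2. In unstimulated cells 7 of the 16 genes were higher, among them Dusp2 (0.38) and Ptpn11 (0.24), and 3 lower, beside 25.4 percent of all genes called. After the GC correction 0 were higher and 1 lower there. The median log2 fold change of the 16 genes was 0.12 in unstimulated cells, 0.09 with anti-CD3 and 0.01 with both antibodies.

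Many other known IL-2 and STAT5 targets were higher in stimulated KO cells. This list was chosen with earlier results of these data known, so its counts are a description and not a test. Of 20 tested, 14 were higher and 0 lower with anti-CD3, 11 higher and 1 lower with both antibodies, and 8 higher and 1 lower in unstimulated cells. The share of all genes called was 15.3, 16.1 and 25.4 percent in that order of states. The median log2 fold change of the 20 genes was 0.87, 0.54 and 0.37 in the same order. With the GC correction 14 were higher and 2 lower with anti-CD3, 13 higher and 0 lower with both antibodies, and 3 higher and 1 lower in unstimulated cells, where the median was then 0.15. Among those with the smallest adjusted p with anti-CD3 were Bcl2l1, which encodes the survival protein Bcl-xL, at 1.71 ± 0.139 (edgeR adjusted p = 3.08e-06), Cdk6, a kinase of the cell cycle, at 1.79 ± 0.160 (edgeR adjusted p = 8.17e-06), Myc at 1.37 ± 0.125 (edgeR adjusted p = 8.88e-06) and the cytokine gene Lif at 4.29 ± 0.403 (edgeR adjusted p = 1.86e-05). Bcl2l1 (1.09) and Myc (0.88) were also higher in KO unstimulated cells (edgeR adjusted p = 0.00154 and 0.0023). Cdk6 (0.07) and Lif (1.51) were not called there. The third Pim gene, Pim3, was higher with anti-CD3 at 0.90 ± 0.170 (edgeR adjusted p = 0.00216), or 0.29 after the GC correction, which did not pass.

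Of 11 Pim substrates and translation partners, 3 were higher and 1 lower in KO cells given anti-CD3, and 3 were higher and 0 lower with both antibodies, beside 15.3 and 16.1 percent of all genes called. After the GC correction 3 were higher and 3 lower with anti-CD3, and 3 higher and 1 lower with both antibodies. The 3 higher with anti-CD3 were Myc, Cdc25a, a phosphatase that activates cell cycle kinases, at 0.80 ± 0.124 (edgeR adjusted p = 0.000536) and Eif4ebp1, a repressor of translation initiation, at 1.12 ± 0.181 (edgeR adjusted p = 0.000729). Cdkn1b, which encodes the cell cycle inhibitor p27, was lower at -0.40 ± 0.0968 (edgeR adjusted p = 0.0097). It was also lower in KO unstimulated cells, at -0.34 (edgeR adjusted p = 0.0209). Among 10 tested partners of Bcl6 and genes it is known to repress, 2 were higher with anti-CD3, Tbx21 (1.33 ± 0.155, edgeR adjusted p = 7.04e-05), which encodes T-bet, and Il2ra. That share lay near the 15.3 percent of all genes called. Tbx21 was also higher in KO unstimulated cells (0.63, edgeR adjusted p = 0.0123). Prdm1, which encodes Blimp-1 and opposes Bcl6, was at -0.35 ± 0.288 (edgeR adjusted p = 0.452) with anti-CD3 and did not pass. With both antibodies 2 of the 10 were higher, Il2ra (1.63) and Tbx21 (1.11), and 1 lower, beside 16.1 percent of all genes called. The lower 1 was Bach2, a repressor that keeps T cells in a less differentiated state, at -0.32 ± 0.105 (edgeR adjusted p = 0.046). Bach2 was not called with anti-CD3 (-0.13, edgeR adjusted p = 0.399). In unstimulated cells 3 of the 10 were higher and 0 lower, beside 25.4 percent of all genes called.

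The genes whose profile over the 6 group means lay nearest to each of the 6 were found by the root mean square difference of centred log2 CPM, among 8967 protein-coding genes. For Cish they were Lta, which encodes lymphotoxin-alpha, at 0.263, Lilr4b at 0.479 and Cd200 at 0.487, where the median over all candidates was 1.41. For Socs2 they were Cdk6 at 0.547, Fignl1 at 0.558 and Chek1 at 0.563 (median 1.34). Nearest to Bcl6 were Patj at 0.164, Slc25a27 at 0.181 and Cd9 at 0.205 (median 0.72). Socs3, Pim1 and Pim2 had closer neighbours, Cnn2 at 0.038, Ywhag at 0.058 and Rnf19b at 0.068, with medians of 0.49, 0.44 and 0.59. The likeness is over 6 points that share libraries and their depth and GC trend, and is a description.

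Within stimulated KO cells the libraries also ranked alike across several of the 6 genes. Of the 3 KO libraries given anti-CD3, replicate 3 was the highest for Cish, Socs2, Socs3, Pim1, Pim2 and Il2 and the lowest for Bcl6. Of the 3 KO libraries given both antibodies, replicate 3 was the highest for Cish, Socs2 and Il2 and the lowest for Bcl6, Socs3 and Pim1. This last library had the lowest GC tilt of all 17 (-1.15), and Socs3 (58.7% GC) and Pim1 are the most GC-rich of the 6 genes and Socs2 (45.4% GC) the least. The part of the tilt in these ranks was not tested. The highest of these libraries exceeded the lowest by 1.55 times for Cish and 2.19 times for Socs2 with anti-CD3, and by 1.22 and 2.34 times with both antibodies. With 3 libraries a group, no test was made of these ranks.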

How the data were processed

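RNA of CD8+ T cells (over 99% purity per the labels) was sequenced from ribosomal RNA-depleted, stranded, paired-end libraries. The authors deposited whole-number read counts per gene, made with STAR 2.5.2 and RSEM 1.3.0 on GRCm38 per the submitters' processing notes. Not given in the sources used here are rounding, annotation release and strand setting. A joined table of the same values was not used. GENCODE M21 matched 53650 of 53679 identifiers, and 24955 genes had 0 counts throughout.

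Counts were fitted with edgeR 4.0.16 (R 4.3.3): filterByExpr, TMM scaling, a robust quasi-likelihood model of all 17 libraries with 1 coefficient per group (common biological coefficient of variation 0.153), and Benjamini-Hochberg adjustment within each of 12 contrasts at 0.05. CPM used TMM-scaled totals. SEs come from the quasi-likelihood F. Totals of 16635826 or more limit precision mainly for Socs2.

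Alternatives were DESeq2 1.42.0, relative log expression scaling, voom weights by sample quality (limma 3.58.1), no filter, 1 CPM in 3 libraries, only the groups compared, replicate blocks, a loess GC correction (span 0.3), and leaving out libraries. The test was checked on simulated counts. The 6 genes and the 80 other listed genes were chosen with earlier results of these data known. Named were the 6 genes, Cblb, Il2, Il2ra, Jak3, Stat5a, Stat5b, Socs1, Pim3, up to 4 genes per list and direction by smallest adjusted p, and the 3 nearest profiles per gene (mean log2 CPM of at least 2). Prdm1 was named after its values were seen. Figures used matplotlib 3.10.9.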

Additional observations from a re-analysis of the deposited data

Results flagged for a closer look

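In 5 results a gene's response to stimulation differed between KO and WT cells by the test of the difference itself, an interaction term in edgeR's quasi-likelihood test. For anti-CD3 this was Cish, whose log2 response was greater in KO cells by 2.14 (edgeR adjusted p = 0.0441). For both antibodies the response was greater in KO cells by 1.21 for Cish (edgeR adjusted p = 0.0218) and by 2.80 for Socs2 (edgeR adjusted p = 0.0329). For Socs3 the interaction was -1.23 (edgeR adjusted p = 0.00628) and for Bcl6 -0.82 (edgeR adjusted p = 0.0111). The last 4 stand beside 37.5 percent of all genes called in that interaction, and the share was 15.6 percent after the GC correction. With KO unstimulated replicate 2 and KO both-antibody replicate 3, the 2 libraries with the strongest tilt, left out, Bcl6 kept its call (-0.68, adjusted p = 0.0483) and Cish (0.96, adjusted p = 0.137), Socs2 (2.41, adjusted p = 0.114) and Socs3 (-0.95, adjusted p = 0.0525) did not. The part of the GC trend in these results was not tested beyond these values.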

How the results depend on the processing

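Of 1920 recomputed values of the 6 genes, 1773 kept their direction and side of the threshold, 81 lost a call, 25 gained one and 41 changed sign, 5 of them called in either fit. Those 5 came with the GC correction: Pim2 (-0.03) and Socs3 (-0.06) for KO against WT unstimulated, Socs3 (-0.31) for KO against WT with anti-CD3, and Pim1 (0.67) and Socs3 (0.03) for the interaction with both antibodies. The other 9 under that correction were Pim1 for KO against WT unstimulated (-0.18), Bcl6 (0.01), Pim1 (0.02), Pim2 (0.20) and Socs3 (0.08) for anti-CD28 added in KO cells, Pim1 (-0.06) and Socs3 (-0.20) in WT cells, and Pim1 (0.07) and Socs3 (0.28) for the interaction with anti-CD28. Outside it, Bcl6 for anti-CD28 added in KO cells was 0.04 without the 2 tilted libraries, Pim2 for the interaction with anti-CD3 was -0.01 with only the groups compared and -0.00 with relative log expression scaling and with DESeq2, and Pim2 for that with anti-CD28 was -0.05 with limma voom. Leaving out 1 library changed a sign 22 times. The ranges of those results were -0.09 to 0.94 (Socs2, KO against WT unstimulated), -2.47 to 0.52 (Socs2, both antibodies in WT), -0.52 to 0.25, -0.24 to 0.03 and -0.10 to 0.02 (Socs2, Bcl6 and Pim2, anti-CD28 added in KO), -0.01 to 0.12 (Bcl6, the same in WT), and -0.11 to 0.12, -0.09 to 0.15 and -0.04 to 0.08 (Pim2, interactions with anti-CD3, both antibodies and anti-CD28).

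The number of the 6 genes called for KO against WT unstimulated was 1 with no filter and with limma voom, and 0 with the GC correction, without the 2 tilted libraries and with only the groups compared. With only the groups compared it was 0 for KO against WT with both antibodies, where 0 of all genes were called. Anti-CD28 added called 3 in WT cells with only the groups compared (31.1 percent of all genes) and 3 with limma voom (37.3 percent), and 4 in KO cells with limma voom (34.2 percent). The interaction with anti-CD3 called 2 with limma voom, that with both antibodies 1 without the tilted libraries, and that with anti-CD28 1 with DESeq2 and 4 with limma voom. In the edgeR fit of all 17 libraries as deposited, 25.4 percent of all genes were called for KO against WT unstimulated. The interactions with anti-CD3, both antibodies and anti-CD28 called 0.0554, 37.5 and 0.00616 percent there. Where no share of all genes is given for another fit, its count cannot be read as particular to the 6 genes. The causes were not tested. DESeq2 gave no adjusted p for Socs2 in 4 comparisons.

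Leaving out 1 library gave 0 to 2 called genes for KO against WT unstimulated, 3 to 5 with anti-CD3 and 0 to 5 with both antibodies. Without WT both-antibody replicate 2 or 3, the lone library is assumed to vary like the other groups, 0 of the 6 were called, and 0.235 and 0.0649 percent of all genes were. The ranges were 6 to 6 in KO cells for each stimulation, 4 to 5 (anti-CD3) and 4 to 4 (both antibodies) in WT cells, 0 to 0 for anti-CD28 added, and 0 to 1, 2 to 4 and 0 to 2 for the interactions with anti-CD3, both antibodies and anti-CD28. In the fit of all 17 libraries, KO against WT called 25.4 (unstimulated), 15.3 (anti-CD3) and 16.1 (both antibodies) percent of all genes. Anti-CD3 and both antibodies called 36.9 and 45.4 percent in KO and 24.4 and 34.1 percent in WT cells. Added anti-CD28 called 0 percent, and the interactions 0.0554, 37.5 and 0.00616 percent. Most shares without 1 library are not given here, so these ranges are a description. Deviations of same-numbered libraries were weakly correlated (40 pairs, r -0.18 to 0.29, 3 over 0.1). Their median r was 0.02, against -0.01 for libraries of different number. These deviations include the GC tilt of each library, so they cannot tell whether equal numbers mark paired samples. The replicate block changed 1 call, Socs3 in WT cells given anti-CD3 (adjusted p 0.0747; 0.113 with a block within genotype). Under relative log expression scaling, 1428 of 2498 genes called for KO against WT with anti-CD3 were higher, against 1713 of 2492 with TMM. Depth limits Socs2 most.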
